A study of Mus musculus with 6 samples.

Results

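The genes described here are 39 genes of glycolysis and of the response to low oxygen, out of 54752 rows of a table of RNA-seq counts. They were chosen by name, from the glycolytic enzymes, the glucose and lactate transporters, and the hypoxia-inducible factor (HIF) subunits, their regulators and targets. For Aldoa, which has more than 1 identifier, the identifier with more counts was taken. Of the 39 genes, 25 belong to glucose and lactate metabolism and 14 to the HIF system. All 39 passed the filter on low counts.

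The samples were 6 libraries of total RNA from mouse embryonic fibroblasts, connective tissue cells cultured from embryos. All came from a line labelled as p53-deleted, although the genotype field of the control samples reads WT. The 3 shNT libraries came from cells given a negative control hairpin by lentivirus, and the 3 shARF libraries from cells given a hairpin against p19ARF. The titles of all 6 samples carry the tag neo. ARF is a tumour suppressor protein made from the Cdkn2a locus, best known for stabilising p53, and the comparison asks how its knockdown changes expression where p53 is missing. Both groups grew in DMEM with 10% serum in a humid incubator with 5% CO2, and the labels name no low-oxygen treatment. Replicates are labelled biological, but nothing says that they came from separate infections, so the p-values rest on a spread between samples that may be technical in origin.

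Glycolysis breaks glucose down to pyruvate in the cytosol. Lactate dehydrogenase turns pyruvate into lactate, which leaves the cell through monocarboxylate transporters, and the pyruvate dehydrogenase complex passes pyruvate into mitochondrial oxidation. Many steps have several isozymes from separate genes, which differ in tissue distribution and regulation. HIF is a transcription factor made of an oxygen-regulated alpha subunit (Hif1a or Epas1) and the partner Arnt. In oxygen, prolyl hydroxylases of the Egln family mark the alpha subunit for destruction by the VHL ubiquitin ligase, so HIF activity is set mainly at the protein level, which RNA counts do not measure. HIF binds DNA at a short core motif, and most glycolytic genes are among its known targets.

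Library totals were 40.3 to 47.0 M counts. Pearson correlations of log2 CPM (the count relative to library size, here scaled by the TMM factors of edgeR) were 0.987 to 0.989 within groups and 0.939 to 0.943 between them. Cdkn2a, the targeted locus, measured 224 ± 6.91 CPM with the control hairpin and 102 ± 5.57 CPM with the ARF hairpin (SD, n = 3 each), a log2 fold change of -1.14 (edgeR adjusted p = 2.52e-06). Those counts cover the p16 transcript of the locus as well as ARF. Trp53 was low in both groups, at 2.26 ± 1.20 and 2.61 ± 0.483 CPM. The groups also differed in sex-linked genes, so the cultures may not share an origin, and an effect of the knockdown cannot be told apart from a difference between cultures in any comparison given here. Xist, the RNA of the inactive X chromosome, fell from 387 ± 26.5 to 45.7 ± 7.49 CPM, and the Y-linked Ddx3y rose from 24.4 ± 1.60 to 85.3 ± 4.19 CPM. Kdm5d, also Y-linked, rose from 0.782 ± 0.216 to 19.5 ± 0.623 CPM. The 12 fibroblast markers were all detected, with a summed level of 22259 to 23935 CPM in shNT and 25877 to 26149 CPM in shARF. These sums follow the most abundant markers, such as Col1a1 (means of 7123 and 9360 CPM). Of the 12, 7 rose and 2 fell (58.3% and 16.7%, against 28.8% and 27.7% of all genes tested). Those that fell were Pdgfra and Dcn (log2 fold changes of -2.46 and -2.12). Of 7 mesothelial markers, 6 rose and Msln fell (85.7% and 14.3%, against 28.8% and 27.7% of all genes tested). Their sums of 83.2 to 86.3 and 97.0 to 100 CPM consist mostly of Msln (84.2 ± 1.63 and 54.4 ± 1.37 CPM). Lrrn4, Upk1b and Muc16 had a count of 0 in all shNT libraries and means of 8.91, 9.58 and 3.35 CPM in shARF, and Upk3b and Wt1 had means of 0.0137 and 0.102 CPM in shNT and 12.0 and 9.54 CPM in shARF. Epithelial markers summed to 15.4 to 17.5 and 7.05 to 7.73 CPM, blood markers to 11.8 to 13.5 and 5.19 to 6.29 CPM, and neural markers to 26.7 to 29.9 and 36.8 to 42.2 CPM. The epithelial sums follow Krt18, which fell from 12.7 ± 1.05 to 0.150 ± 0.130 CPM. Cdh1 and Krt14 went the other way, from means of 2.14 and 0 CPM to 4.80 and 1.91 CPM. Endothelial markers summed to at most 8.01 CPM and skeletal muscle markers to at most 6.44 CPM in any library, with Cdh5, Tie1, Cldn5, Myod1, Myog, Ckm, Adgre1 and Sox10 at 0 throughout. Within the endothelial list Kdr rose from a mean of 0.282 to 3.13 CPM and Tek fell from 2.16 to 0.0670 CPM. The part of culture composition in the results that follow was not tested, and in bulk RNA fewer cells of a type and less RNA per cell cannot be told apart.

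Most of the glycolytic pathway was higher in shARF. Of the 39 genes, 22 rose and 9 fell by edgeR's quasi-likelihood test at an adjusted p under 0.05, in a comparison where 28.8% of all 17128 genes tested were called higher and 27.7% lower. In percent of the 39, these were 56.4% higher and 23.1% lower. The share that rose was thus well above the share over all genes, and the share that fell was close to it. Abundant genes are called more often: over the 11230 genes with at least 5 CPM in 3 libraries, 34.4% were higher and 33.8% lower. With that filter 22 members were called higher and 8 lower, out of fewer than 39, as Slc2a3, Aldoc, Car9 and Ankrd37 did not pass. Slc16a3 and Egln3 passed through their shARF libraries and Eno2 through its shNT libraries. Their calls are therefore no separate support. The median log2 fold change was 0.26, against -0.01 over all genes tested. At least 2-fold changes were fewer, with 4 members higher (Slc16a3, Egln3, Hk2 and Bnip3; 6.59% of all genes) and 2 lower (Aldoc and Eno2; 7.78% of all genes). Every shARF library lay above every shNT library for 23 members and below for 10, against 32.6% and 32.0% of all genes (33 members apart in either direction, against 64.6%). Scaling by library sizes alone called 20 members higher and 11 lower, and moved the calls over all genes to 23.5% higher and 34.3% lower.

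**Figure D1:**
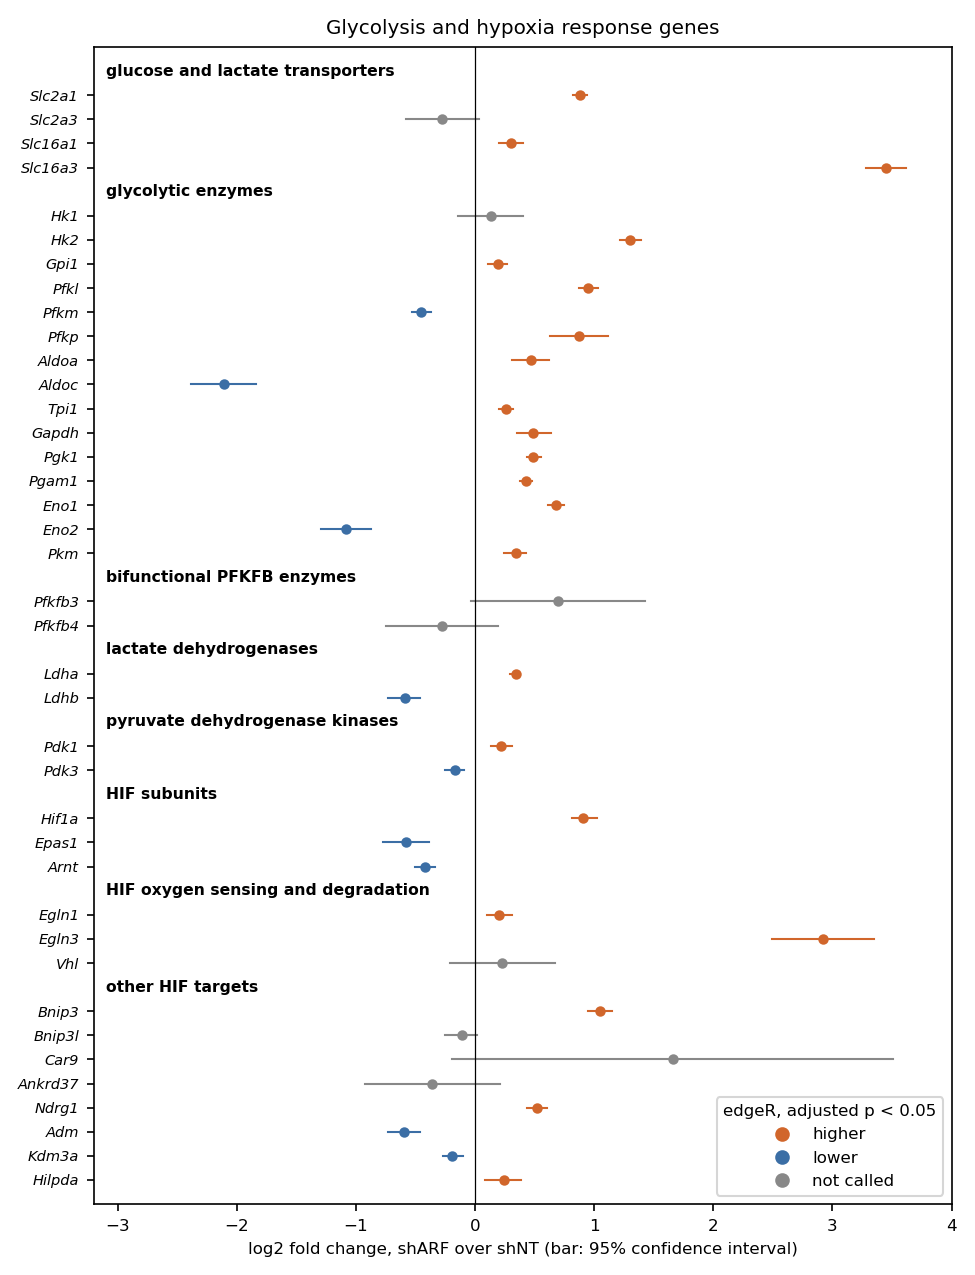
Log2 fold change of each of the 39 genes, shARF over shNT (x axis), grouped by role (y axis); points are edgeR estimates, bars 95% confidence intervals, and colour the call at an adjusted p under 0.05. Slc16a3 and Egln3 stand farthest to the right, at 3.45 and 2.92, and Aldoc farthest to the left, at -2.11.

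The promoters of the 6 members with at least 2-fold changes are shown because HIF's core motif is short and can be read by eye in them. Each is the 250 bases before the RefSeq start, 5′ to 3′ on the gene's strand (build GRCm38.p6), with every ACGTG or GCGTG, on either strand, in capitals. A match on the other strand reads CACGT or CACGC, and overlapping matches were counted separately. The windows are chr11:120948817-120949066 (plus) for Slc16a3, chr6:82774455-82774704 (minus) for Hk2, chr12:54203875-54204124 (minus) for Egln3, chr7:138909507-138909756 (minus) for Bnip3, chr11:78322823-78323072 (plus) for Aldoc and chr6:124769674-124769923 (minus) for Eno2.
Slc16a3: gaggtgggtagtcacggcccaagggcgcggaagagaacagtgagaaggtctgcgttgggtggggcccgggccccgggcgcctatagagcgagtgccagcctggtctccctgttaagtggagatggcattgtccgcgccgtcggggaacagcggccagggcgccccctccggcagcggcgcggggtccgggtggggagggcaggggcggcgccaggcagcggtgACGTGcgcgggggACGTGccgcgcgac
Hk2: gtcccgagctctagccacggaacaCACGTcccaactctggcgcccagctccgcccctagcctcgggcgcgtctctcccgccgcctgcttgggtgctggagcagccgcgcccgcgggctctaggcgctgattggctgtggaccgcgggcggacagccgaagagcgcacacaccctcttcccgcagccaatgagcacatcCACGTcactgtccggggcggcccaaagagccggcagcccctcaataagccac
Egln3: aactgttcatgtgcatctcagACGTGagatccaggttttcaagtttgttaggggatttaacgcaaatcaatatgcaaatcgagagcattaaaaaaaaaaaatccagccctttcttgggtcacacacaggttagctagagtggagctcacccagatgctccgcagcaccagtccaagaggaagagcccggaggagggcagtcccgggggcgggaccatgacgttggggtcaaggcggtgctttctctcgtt
Bnip3: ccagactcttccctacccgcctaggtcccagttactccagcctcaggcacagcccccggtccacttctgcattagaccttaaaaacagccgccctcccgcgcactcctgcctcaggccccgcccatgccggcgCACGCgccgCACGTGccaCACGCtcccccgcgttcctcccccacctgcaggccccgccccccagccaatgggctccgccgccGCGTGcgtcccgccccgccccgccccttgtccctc
Aldoc: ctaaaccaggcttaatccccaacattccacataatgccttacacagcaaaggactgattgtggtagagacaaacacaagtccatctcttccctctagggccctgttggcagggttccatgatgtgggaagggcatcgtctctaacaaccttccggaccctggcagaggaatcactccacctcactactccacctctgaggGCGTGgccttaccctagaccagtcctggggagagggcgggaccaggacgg
Eno2: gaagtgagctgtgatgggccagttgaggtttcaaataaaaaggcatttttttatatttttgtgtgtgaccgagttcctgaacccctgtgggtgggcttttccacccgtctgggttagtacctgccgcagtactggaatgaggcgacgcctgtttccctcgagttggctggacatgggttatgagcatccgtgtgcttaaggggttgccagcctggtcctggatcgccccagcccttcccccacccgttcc

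In these windows Slc16a3 and Hk2 held 2 copies of ACGTG each, Egln3 held 1, and Bnip3 held 5 matches to either motif, 2 of them on the 2 strands of 1 palindrome. The Slc16a3 copies began 27 and 14 bases before the start and the Egln3 copy 229 bases before it. Aldoc, which fell, held 1 GCGTG beginning 50 bases before the start, and Eno2, which also fell, held no match. These distances are from the RefSeq start, which can differ from the GENCODE start of the gene. The Slc16a3 window lies wholly past its GENCODE start (120948480), and so does the Aldoc match (78322968). Of 35 members with an entry, 27 (77.1%) held either motif, against 38.6% of all 32851 windows and 54.5% of the 13731 windows of tested genes. For ACGTG alone the shares were 45.7% of members, 16.6% of all windows and 20.9% of windows of tested genes. For GCGTG they were 51.4%, 28.2% and 43.7%. Median GC content was 59.6% in the windows of members and of tested genes alike, and 52.4% in all windows. By direction, 16 of 21 members that rose and 7 of 8 that fell held either motif, and 11 of 21 and 2 of 8 held ACGTG. Known HIF targets were chosen as members, so a larger share of matches among them is no separate support for HIF. For each member only 1 window was used, the one nearest its GENCODE start. The shares over all windows and over tested genes count every window of a gene. A match describes the letters of the window and does not show a bound site.

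The transporters held the largest rise of all 39 genes. Slc16a3 encodes MCT4, a lactate exporter typical of glycolytic cells (ENSMUSG00000025161.16, chromosome 11, 120948480 to 120960868, plus strand, GRCm38). The shNT libraries read 3.97, 4.27 and 3.77 CPM, and those of shARF 44.5, 46.0 and 41.2 CPM. No values overlapped, and the fold was 10.9 (log2 3.45, SE 0.07, adjusted p = 2.45e-07). Slc2a1, which encodes the glucose transporter GLUT1, read 94.8, 96.4 and 97.8 CPM in shNT and 179, 178 and 175 CPM in shARF (log2 0.88, SE 0.02, adjusted p = 5.94e-07). Slc16a1, the lactate transporter MCT1, rose by a smaller amount, from 124 ± 6.28 to 152 ± 2.85 CPM (log2 0.30). Slc2a3, the glucose transporter GLUT3, was low, at 4.15 ± 0.271 and 3.42 ± 0.510 CPM, and its ranges overlapped (adjusted p = 0.107). Leaving out shARF replicate 3 brought Slc2a3 to a call as lower (log2 -0.41, adjusted p = 0.0241), as did library sizes alone (-0.37, adjusted p = 0.0429).

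Of the 15 glycolytic enzyme genes, 11 rose and 3 fell (73.3% and 20.0%, against 28.8% and 27.7% of all genes tested). Hk2, an inducible hexokinase that commits glucose to the cell (ENSMUSG00000000628.10, chromosome 6, 82725025 to 82774454, minus strand), had the largest rise among the enzymes. Its values were 64.5, 62.6 and 60.9 CPM in shNT and 160, 154 and 150 CPM in shARF, a fold of 2.47 (log2 1.30, SE 0.04, adjusted p = 5.48e-07). Hk1, the more widely expressed hexokinase, gave 125, 155 and 125 CPM against 161, 152 and 128 CPM. These ranges overlapped, and the interval of the Hk1 difference ran from -0.14 to 0.40 on the log2 scale (adjusted p = 0.383).

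Phosphofructokinase, the main point of control in the pathway, changed in opposite directions among its subunit genes. Pfkl, the liver-type subunit, rose from 95.9, 97.2 and 97.2 CPM to 195, 187 and 179 CPM (log2 0.95, adjusted p = 1.66e-06). Pfkm, the muscle-type subunit, fell from 90.8, 90.3 and 88.0 CPM to 64.8, 64.5 and 67.7 CPM (log2 -0.45, adjusted p = 4.36e-05). Pfkp, the platelet-type subunit, rose from 17.1 ± 0.249 to 31.4 ± 4.49 CPM (log2 0.87). Pfkm overlaps Senp1 on the opposite strand, with 32975 counts over all libraries against 20956, and Pfkp overlaps Pitrm1, with 55241 against 6516. No source used here says whether counting used strand, so the values of Pfkm and Pfkp may hold reads of those neighbours.

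For enolase and aldolase, the abundant member isozyme rose and the scarce one fell. Eno1, the ubiquitous enolase, read 623, 625 and 662 CPM in shNT and 1037, 1022 and 1000 CPM in shARF (log2 0.68, adjusted p = 3.24e-06). Eno2, the enolase typical of neurons (ENSMUSG00000004267.16, chromosome 6, 124760053 to 124769673, minus strand), read 7.60, 8.68 and 7.75 CPM against 4.04, 3.72 and 3.60 CPM (log2 -1.08, SE 0.09, adjusted p = 6.28e-05). The same split appeared for the aldolases. Aldoa, the main aldolase of most cells, rose from 286 ± 17.4 to 394 ± 29.4 CPM (log2 0.47). Aldoc, the brain-type aldolase (ENSMUSG00000017390.15, chromosome 11, 78322968 to 78327781, plus strand), read 4.54, 4.46 and 5.25 CPM in shNT and 1.07, 1.12 and 1.10 CPM in shARF. That was a 4.32-fold lower level (log2 -2.11, SE 0.11, adjusted p = 8.36e-06).

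Among the steps served by a single member gene, Pgk1, which makes ATP in the payoff phase, had a log2 fold change of 0.49, Pgam1 of 0.43, Tpi1 of 0.26 and Gpi1 of 0.19. Pkm, which encodes pyruvate kinase and was the most abundant of these genes by CPM, went from 1140 ± 49.2 to 1438 ± 51.4 CPM (log2 0.34, adjusted p = 3.44e-04). These differences were small but exceeded the spread: no library of either group overlapped for any of the 5. Their sizes depended on scaling: with library sizes alone Gpi1 came to 0.10 and Tpi1 to 0.17, and centred on the median of its chromosome Gpi1 came to 0.29 and Pkm to 0.21. Pgk1 lies on the X chromosome, where Xist differed between the groups; the median over tested X-linked genes was -0.14 and the part of this in Pgk1 was not tested.

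Gapdh, which oxidises glyceraldehyde phosphate, needs a separate reading because reads from it can be assigned to its processed copies. The gene alone read 92.8, 95.7 and 95.1 CPM in shNT, and 124, 128 and 146 CPM in shARF (log2 0.49, adjusted p = 4.89e-04). It has 93 annotated copies at 95% identity or more over at least 200 bases, and these held 94.9 to 95.7% of the counts of gene and copies together. With copies added, Gapdh stood at 2118, 2151 and 2173 CPM in shNT and at 2908, 2884 and 2886 CPM in shARF (log2 0.43, adjusted p = 1.66e-06). The listed level may therefore understate Gapdh, while the difference between groups hardly moved. Of the 39 genes, 12 had such copies. For Eno1 the copies held 28.0 to 30.3% of counts (log2 0.71 with them), for Pgk1 13.2 to 13.6% (0.50) and for Pgam1 13.7 to 14.4% (0.43), and for each of the other 8 at most 5.87%.

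**Figure D2:**
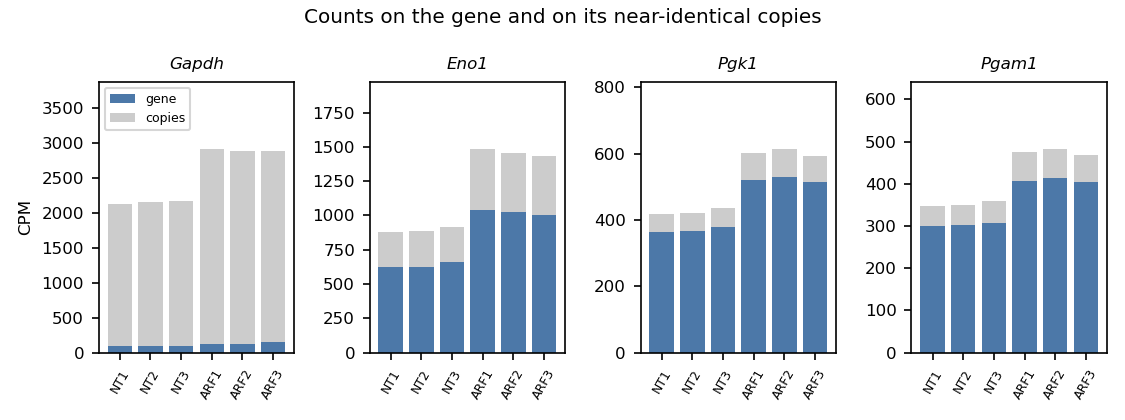
Level in CPM (y axis) in each library (x axis) of Gapdh, Eno1, Pgk1 and Pgam1, stacked as the gene itself (blue) and its near-identical copies (grey). For Gapdh the copies hold 94.9 to 95.7% of the counts, and for all 4 genes the stacked bars of the 3 shARF libraries are higher than those of the 3 shNT libraries.

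At the end of the pathway, Ldha, whose subunit favours lactate production, rose from 459, 470 and 473 CPM to 593, 596 and 583 CPM (log2 0.34, adjusted p = 1.30e-05). Ldhb, the heart-type subunit, fell from 32.5, 32.6 and 33.6 CPM to 20.4, 22.0 and 23.2 CPM (log2 -0.59, adjusted p = 1.37e-04). Neither gene's groups overlapped. Pfkfb3 and Pfkfb4 encode bifunctional enzymes that set the level of fructose 2,6-bisphosphate, the activator of phosphofructokinase. Pfkfb3 varied widely, at 11.6, 12.0 and 19.0 CPM in shNT and 27.2, 14.1 and 27.8 CPM in shARF, and was not called (log2 0.70, interval -0.03 to 1.43, adjusted p = 0.0929). It was called higher without shARF replicate 2 (log2 0.96, adjusted p = 0.0136) or without shNT replicate 3 (0.96, adjusted p = 0.0428), so single libraries decided it. Pfkfb4 gave 11.3 ± 1.79 and 9.36 ± 2.19 CPM (adjusted p = 0.272).

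Levels of different genes can be compared only per length, here as CPM per 1000 bases of the union of a gene's exons. On that scale, and summing the member isozymes of each step, every shARF library lay above every shNT library in 13 of 13 steps from glucose uptake to lactate export. Among single genes, 32.6% of all genes tested lay above in this way. Isozymes outside the members are not in the sums, among them Slc16a7 and Slc2a8, which fell, and Eno3, which rose. Near-identical copies are not in the sums either. The Gapdh step (means of 22.9 and 32.2) is the gene alone, whose copies held 94.9 to 95.7% of counts, so its level may be understated. For Eno1 the copies held 28.0 to 30.3%. The ratio of the means was 1.82 for glucose uptake, 1.64 for hexokinase, 1.58 for enolase and 1.49 for lactate transport. It was lowest at Gpi1 (1.14), phosphofructokinase (1.17), lactate dehydrogenase (1.19) and Tpi1 (1.20). With this length, the entry and exit of the pathway had larger ratios than most middle steps. Where a step sums several isozymes, its ratio and rank depend on the length used, and no other length was tried for the sums. These sums are descriptions without a test.

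**Figure D3:**
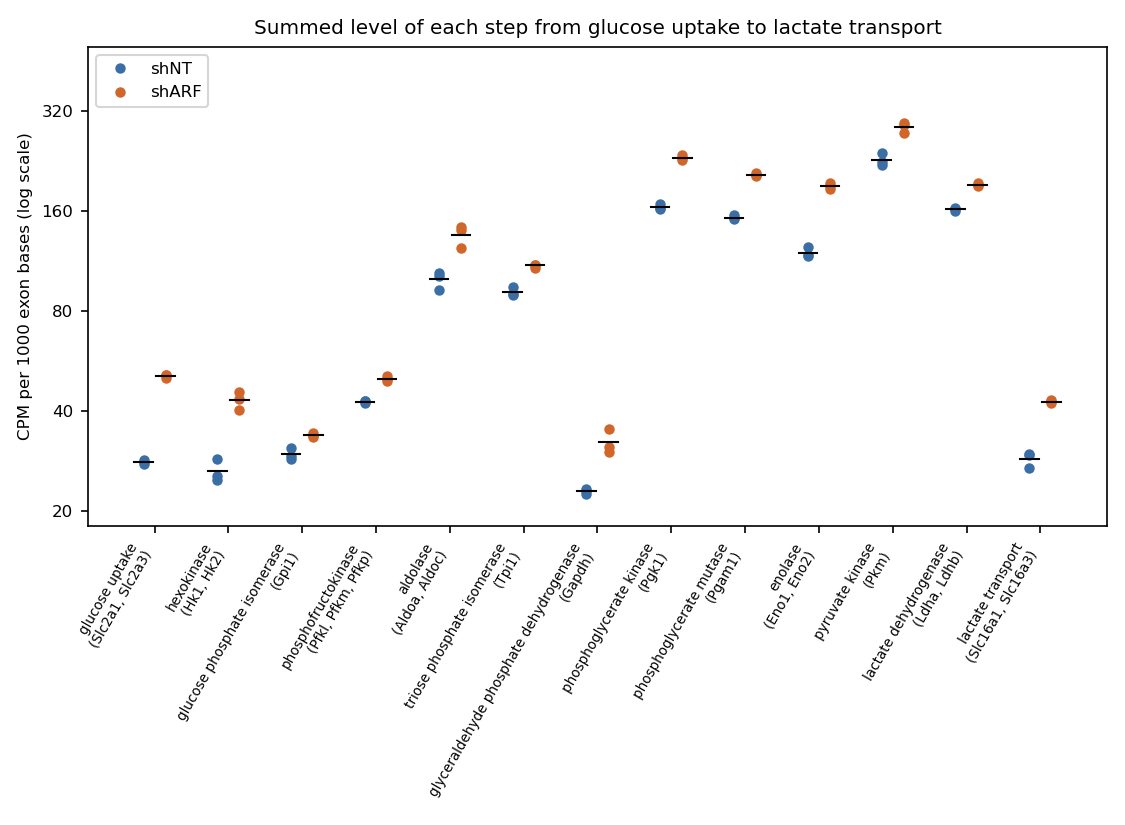
Summed level per step of the pathway, in CPM per 1000 exon bases, by library, with steps in order from glucose uptake to lactate transport (log axis; points are libraries, lines the means of 3). At each of the 13 steps the 3 shARF libraries lie above the 3 shNT libraries, with ratios of the means from 1.14 to 1.82. Among all single genes tested, 32.6% lie above in this way. Near-identical copies are left out, so the level of the Gapdh step may be understated.

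The makeup of several steps differed between the groups (share of the summed per-length level). Hk2 made up 40.1 ± 3.10% of hexokinase RNA in shNT and 60.2 ± 2.13% in shARF. Pfkl made up 34.0 ± 0.487% and 56.0 ± 1.19% of phosphofructokinase RNA, and Pfkm 63.0 ± 0.507% and 39.3 ± 1.74%. Slc16a3 went from 2.63 ± 0.101% to 19.3 ± 1.07% of lactate transporter RNA, and Ldhb from 12.9 ± 0.160% to 7.24 ± 0.489% of lactate dehydrogenase RNA (SD, n = 3 each). In each of these the 3 libraries of a group lay apart from the other 3, which in a two-sided exact permutation test gives p = 0.1, the smallest that 3 against 3 allows. The leading isozyme depends on the length used: with the longest transcript as the length, Hk2 held 26.7% in shNT and 45.1% in shARF, so Hk1 led in both groups, and Pfkl held 43.9% and 65.5%.

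**Figure D4:**
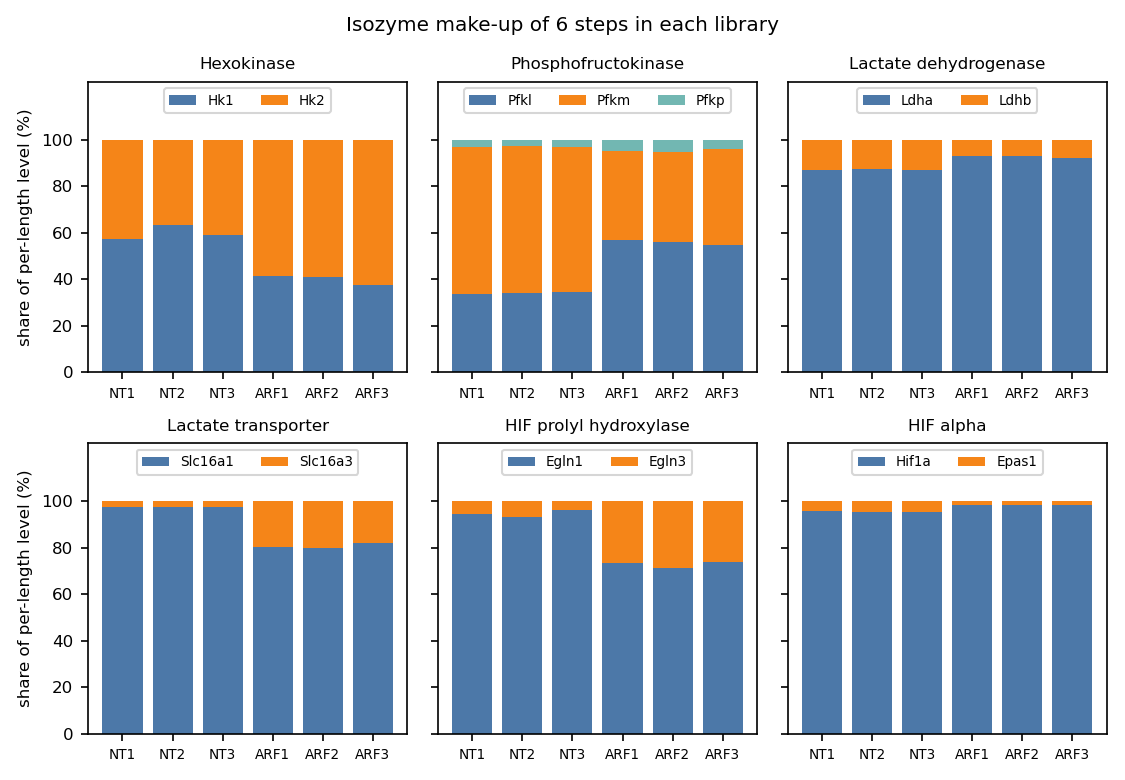
Share of each isozyme in the summed per-length level of its reaction (percent), by library and group. The Hk2 share is 36.6 to 42.5% in the shNT libraries and 58.7 to 62.6% in the shARF libraries.

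The pyruvate dehydrogenase kinases switch off pyruvate entry into mitochondrial oxidation. Pdk1, the classical HIF target among them, read 35.9, 34.8 and 35.0 CPM in shNT and 42.2, 40.5 and 40.5 CPM in shARF (log2 0.22, adjusted p = 0.00260), and 0.13 with library sizes alone. Pdk3 read 77.1, 77.4 and 78.1 CPM against 66.8, 69.2 and 70.3 CPM (log2 -0.17, adjusted p = 0.00376). Pdk3 is X-linked, and centred on the median of its chromosome its call was lost (-0.04, adjusted p = 0.399), while with library sizes alone it stood at -0.26. Both kinases that are not members fell by more: Pdk4 from 8.88 ± 0.520 to 1.84 ± 0.166 CPM (log2 -2.27) and Pdk2 from 10.3 ± 1.34 to 3.54 ± 0.535 CPM (log2 -1.54). In the list of 12 genes of pyruvate entry other than the members, 3 rose and 8 fell. These were 25.0% and 66.7% of the list, against 28.8% and 27.7% of all genes tested. Pdp1, a phosphatase that reactivates the complex, fell (log2 -1.07), and Dlat, its acetyltransferase core, rose (log2 0.52).

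Among the HIF subunits, Hif1a rose and both Epas1 and Arnt fell. Hif1a (ENSMUSG00000021109.13, chromosome 12, 73901375 to 73947530, plus strand) read 225, 240 and 219 CPM in shNT and 423, 415 and 449 CPM in shARF, a fold of 1.88 (log2 0.91, SE 0.04, adjusted p = 5.63e-06). Epas1, which encodes HIF-2alpha, read 9.58, 10.9 and 10.3 CPM against 7.19, 6.41 and 7.07 CPM (log2 -0.58, adjusted p = 8.25e-04). Arnt, the constitutive partner, read 104, 111 and 109 CPM against 82.6, 80.0 and 80.3 CPM (log2 -0.42, adjusted p = 6.58e-05). Per length, Epas1 was 4.54 ± 0.216% of the alpha subunit RNA in shNT and 1.67 ± 0.0828% in shARF. Tested genes of chromosome 12, which holds Hif1a and Egln3, had a median log2 fold change of 0.27. Relative to that median Hif1a stood at 0.64 and Egln3 at 2.65. Arnt2, a second HIF partner outside the members, rose from 13.9 ± 0.179 to 42.9 ± 0.473 CPM (log2 1.62, adjusted p = 3.70e-07).

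The oxygen sensors differed widely in the size of their change. Egln3 encodes the prolyl hydroxylase PHD3, itself induced by HIF (ENSMUSG00000035105.5, chromosome 12, 54178981 to 54203860, minus strand). It read 4.08, 4.82 and 2.82 CPM in shNT and 28.3, 31.5 and 29.1 CPM in shARF, a fold of 7.55 (log2 2.92, SE 0.18, adjusted p = 1.60e-05). Egln1, which encodes PHD2, the main sensor in most cells, moved from 93.2 ± 4.86 to 107 ± 2.83 CPM (log2 0.20, adjusted p = 0.00743). That call was lost with library sizes alone (0.11, adjusted p = 0.0555), and centred on chromosome 8 the value was 0.47. Egln3 was 5.39 ± 1.57% of the summed RNA of the pair in shNT and 27.2 ± 1.22% in shARF. Vhl was at 37.7, 23.6 and 40.0 CPM and at 39.1, 40.7 and 38.8 CPM, and its interval ran from -0.21 to 0.67 (adjusted p = 0.332). Of 15 other tested regulators of HIF, 6 rose and 2 fell (40.0% and 13.3%, against 28.8% and 27.7% of all genes tested). They include Siah2, a ubiquitin ligase for the Egln proteins (log2 1.11), Hsp90aa1, a chaperone (0.52), Hif1an, the asparagine hydroxylase FIH (0.36), and Egln2 (-0.30).

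Of the 8 other HIF targets, 3 rose, 2 fell and 3 were not called. These shares, 37.5% higher and 25.0% lower, are near the 28.8% and 27.7% over all genes tested. Bnip3, a mitophagy receptor (ENSMUSG00000078566.8, chromosome 7, 138890836 to 138909519, minus strand), read 23.1, 23.8 and 24.8 CPM in shNT and 49.2, 48.6 and 50.4 CPM in shARF, a fold of 2.07 (log2 1.05, SE 0.04, adjusted p = 2.71e-06). Its paralog Bnip3l read 98.0, 86.3 and 85.4 CPM against 83.6, 80.8 and 84.7 CPM and was not called (log2 -0.11, adjusted p = 0.140). Bnip3l was called lower with library sizes alone (-0.20, adjusted p = 0.0246) and when centred on its chromosome (-0.31, adjusted p = 0.00374). Ndrg1, a stress-responsive gene, rose from 74.2 ± 1.64 to 107 ± 2.56 CPM (log2 0.52, adjusted p = 1.81e-05). Hilpda, which encodes a lipid droplet protein, read 8.27, 9.26 and 8.96 CPM against 10.5, 10.4 and 10.3 CPM (log2 0.24, adjusted p = 0.0174). The Hilpda call was lost with DESeq2 (adjusted p = 0.0674), with library sizes alone (0.0895) and without shNT replicate 1 (0.0501).

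Other targets went the opposite way or were too low to judge. Adm, which encodes the vasodilator adrenomedullin, read 51.4, 52.7 and 57.1 CPM in shNT and 35.4, 33.9 and 37.0 CPM in shARF (log2 -0.60, adjusted p = 1.26e-04). Kdm3a, a histone demethylase, fell from 66.5 ± 1.73 to 58.4 ± 0.766 CPM (log2 -0.19, adjusted p = 0.00351), or by 0.10 relative to its chromosome. Groups did not overlap for either gene. Car9, the carbonic anhydrase often used as a marker of hypoxic cells, was nearly undetected, with 17 counts over the shNT libraries and 53 over the shARF libraries (log2 1.66, interval -0.19 to 3.51, adjusted p = 0.108). Without shNT replicate 1 it was called higher (3.09, adjusted p = 0.0181). Ankrd37 was at 1.44 ± 0.374 and 1.12 ± 0.169 CPM (adjusted p = 0.240). Both share ground with an opposite-strand gene of more counts, Car9 with Gm12454 (122 against 70) and Ankrd37 with Ufsp2 (12171 against 348).

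**Figure D5:**
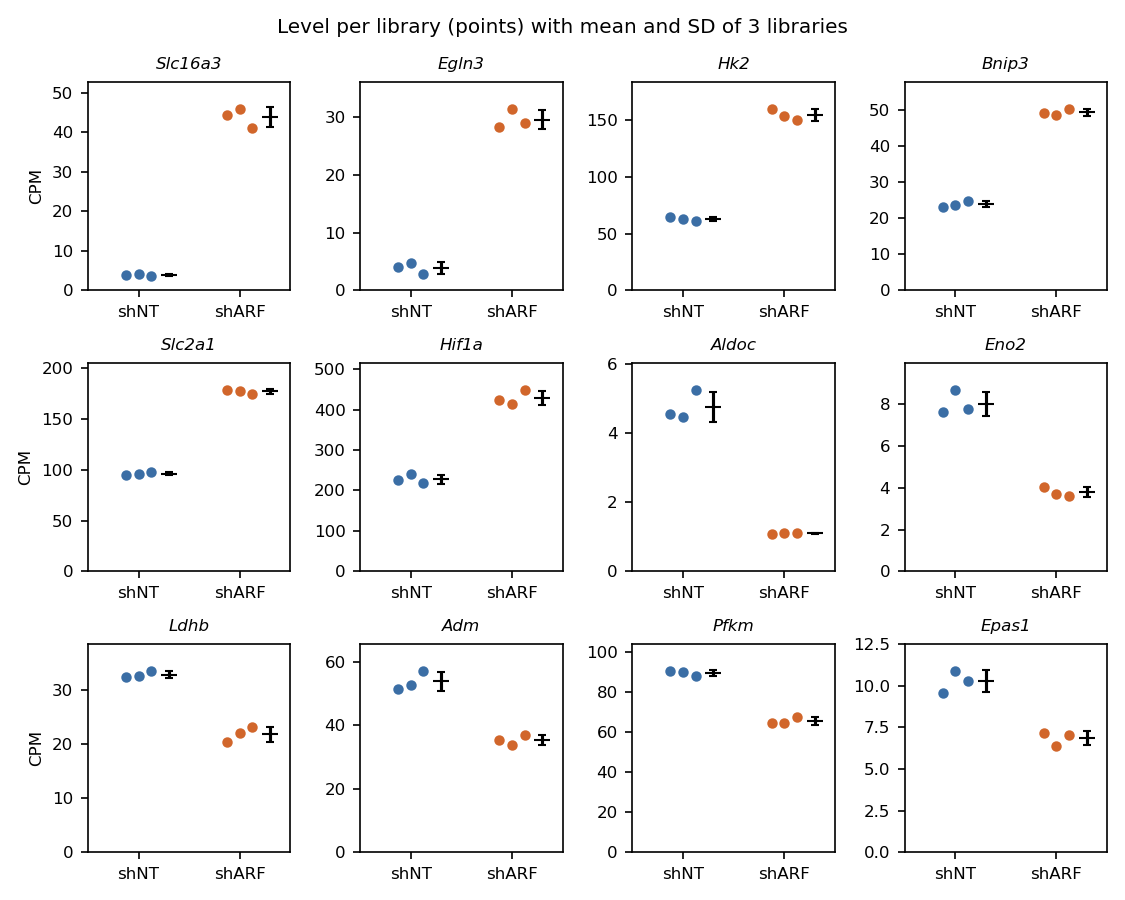
Level in CPM (y axis, starting at 0) of 12 of the genes in each library, with the mean and SD of the 3 libraries of a group (bars beside the points). The groups are apart in all 12 panels: shARF is above shNT for Slc16a3, Egln3, Hk2, Bnip3, Slc2a1 and Hif1a, and below for Aldoc, Eno2, Ldhb, Adm, Pfkm and Epas1.

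The members' split between rises and falls was set beside a list of 30 further HIF targets, each tested as a single gene. Of these, 21 rose and 3 fell (70.0% and 10.0%, against 28.8% and 27.7% of all genes tested). Their median log2 fold change was 0.54, against -0.01 over all genes tested. No test was run over the list. Ero1l, an oxidase of disulfide formation in the endoplasmic reticulum, went from 45.2 ± 1.21 to 270 ± 13.0 CPM (log2 2.58, adjusted p = 1.54e-07). Vegfa, the angiogenic growth factor, rose by a log2 fold change of 1.42. Ppp1r3c, a glycogen-targeting subunit of a phosphatase, fell from 18.6 ± 0.750 to 1.80 ± 0.0804 CPM (log2 -3.37, adjusted p = 2.45e-07). Several of these genes also answer to other stress pathways, so the list does not measure HIF alone.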

How the data were processed

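Counts per gene were deposited by the authors as 1 table of whole numbers, not normalized, for 6 libraries prepared with a stranded kit after ribosomal RNA removal, per the labels. Per the submitters' processing notes the build was GRCm38 and the tools included HISAT2 2.1.0, StringTie 1.3.2, Trim Galore 0.4.1, Picard 2.13.2, SAMtools 0.1.19 and DESeq2 1.34.0. Not given in the sources used here: the counting tool, its strand setting and any removal of duplicates. Removing duplicates would understate the most abundant genes, and counting without strand would mix overlapping genes. Another 6 columns, tagged puro instead of neo, match no sample and were not used.

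Identifiers were matched to GENCODE M21 (54723 of 54752; 29 rows without a symbol held 0.00291% of counts). No pair of libraries agreed within sampling noise (chi-square over genes), so none was treated as deposited more than once, which does not show that they came from separate cultures. The main test was edgeR 4.0.16 (quasi-likelihood F test, two-sided, group as the sole term, TMM, filterByExpr minimum count 10 and minimum total 15) in R 4.3.3, with Benjamini-Hochberg adjustment over 17128 genes. Fold changes carry the SE of that fit. Unless another tool is named, every adjusted p is edgeR's. The script was tested on simulated data, in a single draw. No changed gene was called in the wrong direction, but false calls were a larger share of calls than the nominal level. Far fewer genes were changed in that draw than were called here. The share of false calls depends on that number, so it cannot be carried over to these data. Calls near the threshold may be less certain than their adjusted p states. Copies were found with BLAST 2.17.0. Promoters came from RefSeq. Alternatives used DESeq2 1.42.0, limma 3.58.1 (voom), other scalings, filters and thresholds, centring on the chromosome, and leaving out each library. All 39 members are named, plus the 3 genes with the smallest p in each pathway list, except 1 that is not reported here; other genes outside these (Pdk2, Vegfa, Hif1an and Egln2, and genes in the closing section) were chosen after their values were seen. Members and lists were chosen with earlier results of these data known.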

Additional observations from a re-analysis of the deposited data

How the results depend on the processing

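Over 18 alternatives, 32 of the 39 members kept their direction and call in all in which they were tested, 7 changed call in any, and 0 reversed; members called higher numbered 20 to 23 and lower 8 to 11. The members' median log2 fold change of 0.26 came to 0.33 when centred on the chromosome and 0.17 with library sizes alone, and 0.25 to 0.31 when each library was left out in turn. Calls over all genes, 9667, came to 8753 to 9158 when each library was left out in turn. With the replicate number as a block, 8913 genes were called, as were 23 members higher and 9 lower, Pfkfb3 among them (log2 0.67, adjusted p = 0.0458). Same-numbered libraries did not deviate together (correlations -0.0904, -0.0211 and 0.00647), and no library correlated best with its own number. Correlations of so few libraries cannot decide whether the numbers mark shared handling. At a threshold of 0.01 the Hilpda call was lost (log2 0.24, adjusted p = 0.0174). With the longest transcript as the length, share differences in percentage points, shARF minus shNT, were -0.767 for Aldoc, -0.637 for Eno2, -2.36 for Epas1, -4.03 for Ldhb and 19.5 for Slc16a3; with copies added Eno2's was -0.717. Except where the setting's own construction shows it, the cause was not tested. Depth limits only Car9 and Ankrd37, the members under 2 CPM in every library, besides Aldoc in shARF.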

Other observations

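Neighbouring carbohydrate pathways were mixed. Of 12 tested genes of glycogen and gluconeogenesis, 6 rose and 3 fell, in a comparison with 28.8% of all genes higher and 27.7% lower. Gys1, glycogen synthase, rose from 64.2 ± 1.90 to 108 ± 2.08 CPM (log2 0.75, edgeR adjusted p = 4.34e-06), and Pgm1, phosphoglucomutase, from 63.4 ± 2.19 to 106 ± 0.883 CPM (log2 0.74). Pygb, a glycogen phosphorylase, fell from 155 ± 5.51 to 99.9 ± 2.06 CPM (log2 -0.63). Pcx, pyruvate carboxylase, fell from 105 ± 7.64 to 48.1 ± 3.08 CPM (log2 -1.13), and Pck2, the mitochondrial PEP carboxykinase, rose from 127 ± 11.7 to 237 ± 1.93 CPM (log2 0.90).

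Of 8 pentose phosphate genes, 3 rose and 3 fell (37.5% each, against 28.8% and 27.7% of all genes tested). Rpia, ribose phosphate isomerase, fell from 19.2 ± 0.917 to 6.86 ± 0.522 CPM (log2 -1.48, edgeR adjusted p = 6.47e-06). In the oxidative branch, H6pd and Pgd rose (log2 0.33 and 0.26), while G6pdx, the X-linked entry enzyme, fell (log2 -0.27). Of 23 other glycolytic isozyme genes, 11 were expressed enough to test, of which 2 rose and 5 fell. These were 18.2% and 45.5% of the 11, against 28.8% and 27.7% of all genes tested. Slc16a7, the monocarboxylate transporter MCT2, fell from 3.00 ± 1.25 to 0.135 ± 0.0465 CPM (log2 -4.44), and Slc2a8 fell by 1.04 on the log2 scale. Eno3, the muscle-type enolase, rose (log2 0.53).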
